A study of Mus musculus with 6 samples.

Results

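The 10 genes described here encode the machinery that gates the G1 phase of the cell cycle, together with the transcription factor MYC. They are the D cyclins Ccnd1, Ccnd2 and Ccnd3, their kinases Cdk4 and Cdk6, the CDK inhibitors Cdkn1a, Cdkn1b, Cdkn2c and Cdkn2d, and Myc. They were picked by gene symbol from the 16254 genes of the count table, all 10 were present, and all 10 passed the low-count filter that left 13498 genes for testing. RNA was sequenced from eosinophils differentiated out of the bone marrow of C57BL/6 mice aged 6 to 12 weeks and used on day 12 of culture. For 24 h, 3 cultures were treated with extracellular vesicles (EVs) from activated TH2 cells at 5e9 EVs per ml, and 3 with an equal volume of sham control, which was unconditioned medium carried through the same isolation. By the labels, no other agent and no allele separated the groups. The RNA came from whole cultures grown first with FLT3 ligand and stem cell factor and then with IL-5. The sources used here describe no sort before the treatment, and do not give whether marrow was pooled. They name no IL-5 in the medium of the EV treatment, and in the study's survival assays IL-5 was a separate arm. Whether it was present in the cultures used for RNA is not stated outright. The labels call the cultures biological replicates without naming animals, so p-values measure the spread between these cultures.

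In G1, a D cyclin binds CDK4 or CDK6, and the complex phosphorylates the retinoblastoma protein and its relatives, which releases E2F factors to turn on genes of DNA replication. INK4 inhibitors (p15, p16, p18 and p19, from Cdkn2b, Cdkn2a, Cdkn2c and Cdkn2d) bind the kinases directly, whereas the CIP/KIP inhibitors (p21 and p27, from Cdkn1a and Cdkn1b) bind cyclin-CDK complexes, and p21 is a classical target of p53. MYC pairs with MAX at E-box sequences and drives growth and cell cycle entry, and mature eosinophils are non-dividing cells that arise from dividing marrow progenitors.

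Stretches upstream of annotated starts are shown for Cdk4, Cdk6 and Cdkn1a, the genes called below that hold an E-box, bound by MYC, or a p53 half-site in a promoter window. Promoter windows, from 250 bases before to 50 after a RefSeq gene start (GRCm38.p6, the same assembly as the mm10 named for these data), were found for 7 of the 10 genes. Ccnd1, Ccnd2 and Myc had no entry. Each stretch was taken from such a window, stops before the next annotated exon, and is written on the + strand with the motif matches in capitals. For Cdk4 (chr10:127063285-127063533) and Cdk6 (chr5:3343643-3343731), the capitals mark the E-box CACGTG. The Cdk6 stretch lies inside the span of the longer GENCODE gene, outside its annotated exons. For Cdkn1a (chr17:29090729-29090975), they mark matches to the p53 half-site.
Cdk4: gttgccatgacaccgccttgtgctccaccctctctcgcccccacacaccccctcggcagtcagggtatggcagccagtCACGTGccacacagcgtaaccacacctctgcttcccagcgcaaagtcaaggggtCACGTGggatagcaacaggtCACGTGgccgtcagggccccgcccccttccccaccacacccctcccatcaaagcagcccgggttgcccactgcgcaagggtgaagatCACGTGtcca
Cdk6: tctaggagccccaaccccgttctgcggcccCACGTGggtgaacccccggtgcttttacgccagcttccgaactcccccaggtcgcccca
Cdkn1a: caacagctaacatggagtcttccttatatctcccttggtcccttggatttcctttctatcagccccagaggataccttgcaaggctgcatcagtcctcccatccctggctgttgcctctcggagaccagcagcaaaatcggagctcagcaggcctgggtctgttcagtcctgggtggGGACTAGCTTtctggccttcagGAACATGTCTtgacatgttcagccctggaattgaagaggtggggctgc

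The Cdk4 stretch holds 4 E-boxes, starting 172, 118, 98 and 11 bases before the gene start. Of all 32851 windows, 7.15% hold at least 1 E-box and 8 windows (0.0244%), that of Cdk4 among them, hold 4 or more. The Cdk6 stretch holds 1 E-box, and a window of Cdkn2c holds 1 that begins 34 bases after its start. The p53 half-site is in 8.36% of windows, with 2 matches in a window of Cdkn1a and 1 in that of Cdkn2d. Of the other motifs searched on both strands, the E2F motif TTTNNCGC (5.17% of windows) matched Cdk6, the FOXO motif GTAAACA (3.65%) matched Ccnd3, and the Sp1 motif GGGCGG (35.7%) matched 6 of the 7 genes. The STAT motif TTCNNNGAA (8.3%) and the CRE TGACGTCA (1.79%) had no match in the windows of these genes. The capitals do not overlap a match to any other motif searched, and a match describes letters and not a bound site.

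Of the 10 genes, 4 rose with EV treatment (Cdk6, Cdkn1a, Ccnd3 and Myc), 2 fell (Ccnd1 and Cdk4) and 4 did not pass the test (Ccnd2, Cdkn1b, Cdkn2c and Cdkn2d). The call required a Benjamini-Hochberg adjusted p below 0.01 over the 13498 genes in edgeR's quasi-likelihood fit. The background was high, as 23.7% of all genes tested were called, 12.1% higher and 11.6% lower, so the number of called genes among these 10 is read beside that share. When the log2 fold change also had to reach 1 in size, 4 of the 10 were called beside 9.45% of all genes, 3 of them higher (3.1% of all genes) and 1 lower (6.35%). The median log2 fold change was 0.36 over the 10 genes and -0.01 over all genes. EV and sham samples did not overlap for 7 of the 10 genes, against 49.6% of all genes tested.

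**Figure D1:**
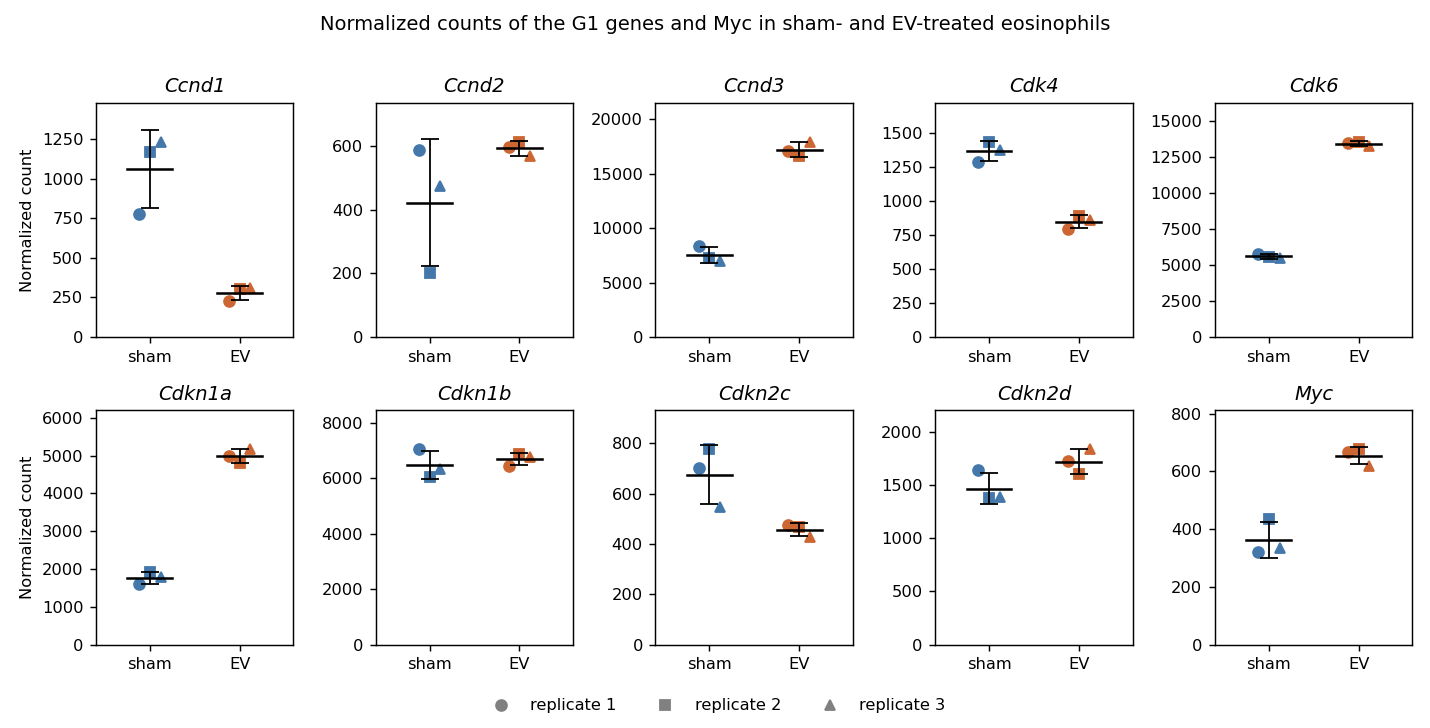
Normalized counts of the 10 genes (y axis, linear and starting at 0) in the 3 sham-treated and 3 EV-treated cultures (x axis), where each point is a culture, its shape the replicate number, the long line the group mean and the bars 1 SD. The Cdk6 points lie between 5446 and 5777 in sham and between 13214 and 13519 with EVs, while Ccnd2, Cdkn1b and Cdkn2d overlap between groups.

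The total of estimated counts per library ran from 23697620 to 32808674 in sham and from 32260914 to 37874426 with EVs. Normalized counts below are rounded estimated counts divided by a scaled library size, and log2 fold changes are EV over sham. Replicates of a group differed by more than sampling noise, with a chi-square per gene of at least 8.37, so all 6 samples were counted. With 3 against 3 samples, an exact two-sided permutation test of a single value cannot give a p below 0.1.

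Of the D cyclins, the regulatory subunits that carry mitogen signals to the kinases, Ccnd3 rose, Ccnd1 fell and Ccnd2 did not pass the test. Ccnd3, the main D cyclin transcript in these cells, was at 8355, 7261 and 6995 normalized counts in sham replicates 1 to 3 and at 17086, 16585 and 17920 in EV replicates 1 to 3. The lowest EV-treated sample was thus far above the highest sham-treated one. The means were 7537 ± 721 and 17197 ± 674 (SD, n = 3 each), a 2.28-fold rise, with a log2 fold change of 1.19 (SE 0.0736) and an edgeR adjusted p of 1.55e-06.

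Ccnd1 was at 779, 1172 and 1233 normalized counts in sham replicates 1 to 3 and at 226, 301 and 307 in EV replicates 1 to 3. Sham replicate 1 was the lowest of its group, and still stood above all EV-treated samples. The EV mean of 278 ± 45.3 (SD, n = 3) was 0.262 times the sham mean of 1061 ± 246 (SD, n = 3), with a log2 fold change of -1.93 (SE 0.190) and an edgeR adjusted p of 3.16e-05. It had the largest absolute log2 fold change of the 10 genes.

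Ccnd2 was at 589, 201 and 476 normalized counts in sham and at 597, 614 and 568 in EV replicates 1 to 3. Sham replicate 2 was far below the other samples, while the EV-treated samples lay close together within reach of sham replicate 1, so that the groups overlapped. The coefficient of variation was 47.3% in sham and 3.87% with EVs. The log2 fold change of 0.48 had a 95% interval of -0.18 to 1.15 and an edgeR adjusted p of 0.244. Without sham replicate 2 it was 0.15, with an edgeR adjusted p of 0.393.

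Because counts grow with transcript length, the D cyclins were also compared with each other after division by the length of the longest protein-coding transcript. On this scale Ccnd3 made up 92.9%, 90.9% and 89.1% of the D cyclin total in sham replicates 1 to 3 and 98.1%, 97.8% and 98.0% in EV replicates 1 to 3. Ccnd1 made up 4.90%, 8.28% and 8.88% in sham, and 0.733%, 1.00% and 0.949% with EVs. Neither cyclin's share overlapped between the groups, and the mean shares moved by 7.01 percentage points for Ccnd3 and by -6.46 for Ccnd1, each with an exact two-sided permutation p of 0.1 (n = 3 per group). The share of Ccnd2 ranged from 0.840% to 2.19% in sham and from 1.04% to 1.21% with EVs, and these ranges overlap. The ratio of Ccnd3 to Ccnd1 counts, in which length cancels when groups are compared, was 8.64-fold higher with EVs.

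**Figure D2:**
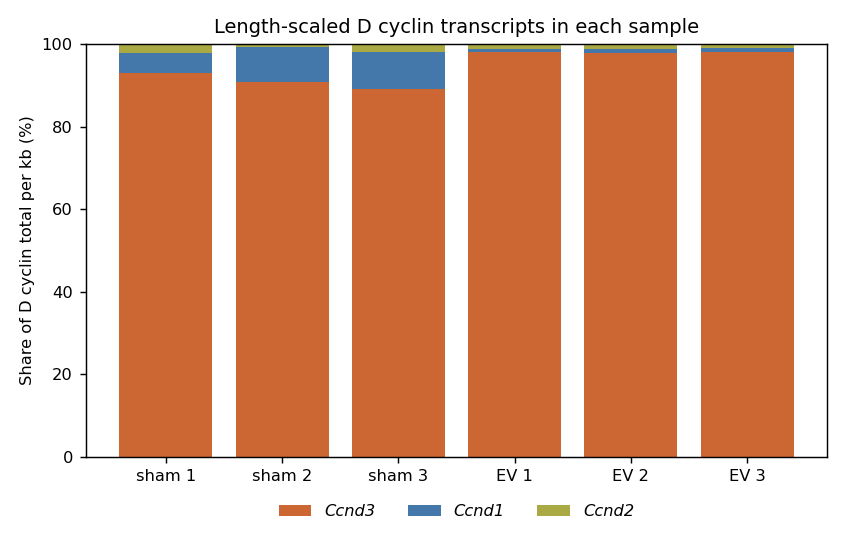
Share of each D cyclin in the length-scaled D cyclin total (y axis, percent) in each of the 6 cultures (x axis), with 1 stacked bar per culture and 1 colour per gene. Ccnd3 takes from 89.1% to 92.9% of the bar in sham and from 97.8% to 98.1% with EVs, and the Ccnd1 band narrows from a mean of 7.35% to 0.895%.

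The kinase genes, whose products are activated by the D cyclins, also diverged. Cdk6 was at 5777, 5574 and 5446 normalized counts in sham replicates 1 to 3 and at 13446, 13519 and 13214 in EV replicates 1 to 3. The groups stood far apart, with SDs of 167 around a sham mean of 5599 and 159 around an EV mean of 13393 (n = 3 each). The rise was 2.39-fold, with a log2 fold change of 1.26 (SE 0.0530, the smallest of the 10 genes) and an edgeR adjusted p of 1.39e-07.

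Cdk4 was at 1287, 1433 and 1372 normalized counts in sham and at 796, 890 and 856 in EV replicates 1 to 3. All EV-treated samples were below all sham-treated samples. The mean fell from 1364 ± 73.3 to 847 ± 47.4 (SD, n = 3 each), with a log2 fold change of -0.69 (SE 0.0843) and an edgeR adjusted p of 0.000141. The ratio of Cdk6 to Cdk4 counts was 3.85-fold higher with EVs. Both genes carry the E-box letters printed above, 4 copies in the Cdk4 stretch and 1 in that of Cdk6. Whether MYC binds there in these cells was not tested.

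Among the CIP/KIP inhibitors, Cdkn1a (p21) was at 1602, 1919 and 1784 normalized counts in sham replicates 1 to 3 and at 4997, 4809 and 5165 in EV replicates 1 to 3. Every EV-treated sample was far above every sham-treated one. The means were 1768 ± 159 and 4990 ± 178 (SD, n = 3 each), a 2.82-fold rise with a log2 fold change of 1.50 (SE 0.0777) and an edgeR adjusted p of 5.5e-07. It was the largest rise among the 10 genes.

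Cdkn1b (p27), the other CIP/KIP inhibitor of the set, was at 7031, 6035 and 6344 normalized counts in sham and at 6442, 6870 and 6743 in EV replicates 1 to 3. The EV-treated samples lay within the sham range. The log2 fold change was 0.05 with a 95% interval of -0.11 to 0.20 and an edgeR adjusted p of 0.642, and it was -0.10 when libraries were scaled by their totals alone. The ratio of Cdkn1a to Cdkn1b counts was 2.73-fold higher with EVs.

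Neither INK4 inhibitor of the set passed the test. Cdkn2c (p18) was at 704, 776 and 548 normalized counts in sham and at 477, 466 and 427 in EV replicates 1 to 3. The groups did not overlap, though sham replicate 3 came close to the EV-treated samples. The log2 fold change of -0.57 (95% interval -0.88 to -0.25) had an edgeR adjusted p of 0.0107, just outside the threshold. Without sham replicate 3 it was -0.69 with an edgeR adjusted p of 0.00241. Without EV replicate 3 it was -0.51 with an edgeR adjusted p of 0.0597. DESeq2 gave -0.56 with an adjusted p of 0.00323.

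Cdkn2d (p19) was at 1640, 1378 and 1388 normalized counts in sham and at 1727, 1603 and 1836 in EV replicates 1 to 3. Sham replicate 1 was above EV replicate 2, so that the groups overlapped by this pair. The log2 fold change was 0.23 with a 95% interval of 0.03 to 0.43 and an edgeR adjusted p of 0.0763.

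Myc was at 322, 434 and 333 normalized counts in sham replicates 1 to 3 and at 668, 676 and 620 in EV replicates 1 to 3. The groups did not overlap, and sham replicate 2 was the highest sham-treated sample. The mean rose 1.80-fold, from 363 ± 61.8 to 655 ± 30.6 (SD, n = 3 each), with a log2 fold change of 0.85 (SE 0.140) and an edgeR adjusted p of 0.000976.

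**Figure D3:**
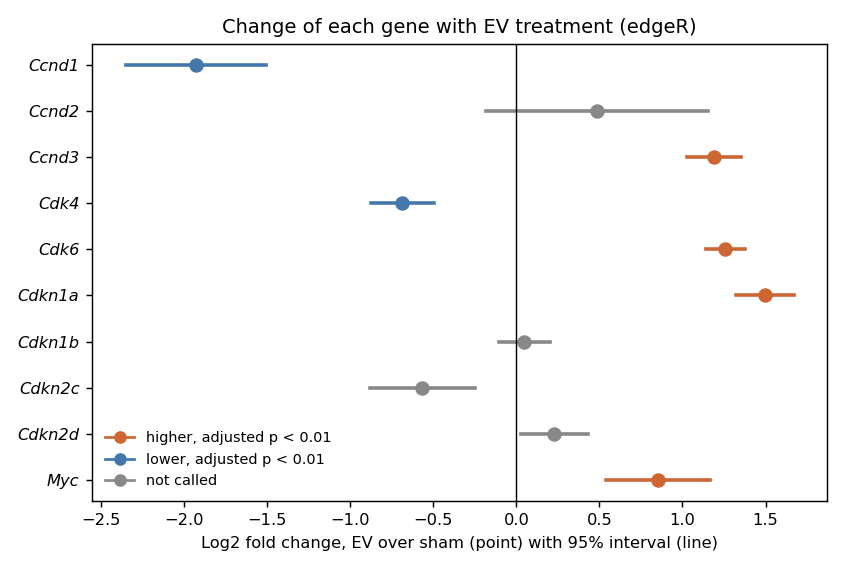
Log2 fold change of each gene, EV over sham (x axis), with its 95% interval from edgeR as a line, coloured by the call at an adjusted p under 0.01 (y axis, the 10 genes). Ccnd1 at -1.93 and Cdk4 at -0.69 lie left of 0, Ccnd3, Cdk6, Cdkn1a and Myc lie between 0.85 and 1.50, and the intervals of Ccnd2 and Cdkn1b include 0.

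Per kb of the longest protein-coding transcript, the order of mean normalized counts in sham-treated cultures was Ccnd3 (3567), Cdkn1b (1421), Cdkn2d (1032), Cdkn1a (850), Cdk4 (664), Cdk6 (486), Ccnd1 (284), Cdkn2c (274), Myc (155) and Ccnd2 (66.7). The samples of neighbouring genes in this order overlapped for Ccnd1 and Cdkn2c, and for no other neighbours. With EVs the order of levels per kb was Ccnd3 (8139), Cdkn1a (2399), Cdkn1b (1469), Cdkn2d (1210), Cdk6 (1162), Cdk4 (413), Myc (280), Cdkn2c (185), Ccnd2 (93.7) and Ccnd1 (74.3). There, only the neighbours Cdkn2d and Cdk6 overlapped. This order depended on the length used. By coding length Cdkn1b stood above Ccnd3 in sham, Cdkn1a held the fourth place in both groups, and Ccnd1 went from the eighth place to the last. Cdk6, whose longest transcript has 11525 bases of which 978 are coding, then stood in the third place in sham and in the second with EVs.

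Sequence shared with other genes was limited, as at most 4.32% of the 31-base words in the transcripts of a gene (Ccnd3, mainly with its pseudogene Ccnd3-ps) occurred elsewhere. The strand setting of the quantification is not given in the sources used here, so reads of genes that overlap on opposite strands cannot be told apart. In GENCODE vM21 (GRCm38), Ccnd1 (chr7:144929931-144939925, minus strand) shares 1100 exonic bases with LTO1. Cdk4 (chr10:127063534-127067920, plus strand) shares 641 with Tspan31, and Ccnd3 (chr17:47505051-47599691, plus strand) shares 361 with Bysl. These partners did not pass the test, with edgeR adjusted p of 0.149 for LTO1, 0.545 for Tspan31 and 0.601 for Bysl. Cdk6 (chr5:3341485-3531008, plus strand), Cdkn1a (chr17:29090976-29100727, plus strand) and Ccnd2 (chr6:127125162-127152193, minus strand) share at most 372 exonic bases with a noncoding or unclassified gene on the other strand. Cdkn1b (chr6:134920401-134925513) and Myc (chr15:61985391-61990374) lie on the plus strand, and Cdkn2c (chr4:109660876-109667189) and Cdkn2d (chr9:21288410-21291407) on the minus strand, with no exonic overlap found.

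The pathway genes around the 10 were counted in 6 lists, to be read beside the 12.1% of all genes that rose and the 11.6% that fell. Of 19 partners of the D cyclin kinases at the G1 to S step, 4 rose, 1 fell and 14 did not pass, with a median log2 fold change of 0.06 beside -0.01 over all genes. With library totals alone as the scaling, which moved the median of all genes to -0.16, 1 rose and 2 fell. E2f2, an activator of replication genes, rose from 2583 to 5015 mean normalized counts (log2 fold change 0.96, edgeR adjusted p 5.8e-06). Tfdp1, the DP partner of E2F factors, had a log2 fold change of 0.33 (edgeR adjusted p 0.00509). Mnat1, the assembly factor of the CDK-activating kinase, fell from 563 to 329 (log2 fold change -0.77, edgeR adjusted p 0.00091). Leaving out a single library left between 1 and 4 of these genes higher. The count was 2 without sham replicate 2 and 1 without sham replicate 3, EV replicate 1, EV replicate 2 or EV replicate 3.

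Other CDK inhibitors, and genes of the turnover of cyclins and inhibitors, included changes as large as those of the 10 genes. Of 14 genes, 5 rose, 2 fell and 7 did not pass, with a median of 0.06. Dcaf1, a substrate receptor of CUL4 ubiquitin ligases, rose from 770 to 2483 mean normalized counts (log2 fold change 1.69, edgeR adjusted p 5.47e-07). Cdkn2b (p15), an INK4 inhibitor, rose from 506 to 1225 (log2 fold change 1.27, edgeR adjusted p 2.92e-05). Cdkn1c (p57), the remaining CIP/KIP inhibitor, fell from 151 to 21.2 (log2 fold change -2.82, edgeR adjusted p 8.05e-05). Cdkn2a, named after its values were seen, encodes p16 and p19ARF from alternative first exons that a count per gene does not separate, and rose from 1522 to 3121 (log2 fold change 1.04, edgeR adjusted p 4.95e-06). The inhibitor genes thus did not move as a group: Cdkn1a, Cdkn2a and Cdkn2b rose, Cdkn1c fell, and Cdkn1b, Cdkn2c and Cdkn2d did not pass the test. Of these, Cdkn2c was lower with EVs and just outside the threshold.

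Around MYC, the network of its partners and antagonists gave 1 rise, 1 fall and 8 genes that did not pass among 10 tested, with a median of 0.17. Mxd1, a MAX partner that opposes MYC at E-boxes, rose from 18515 to 30543 mean normalized counts (log2 fold change 0.72, edgeR adjusted p 1.04e-05). Max, the obligate partner, fell from 5062 to 3853 (log2 fold change -0.39, edgeR adjusted p 0.000741). Mycn, Mycl and Mlxipl were not tested. Without sham replicate 1 or sham replicate 2, the number of rises was 2.

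Of 25 genes that MYC is known to activate, mostly of ribosome and nucleolar function, 4 rose, 2 fell and 19 did not pass, with a median log2 fold change of -0.08. Srm, which makes spermidine, rose from 392 to 689 mean normalized counts (log2 fold change 0.82, edgeR adjusted p 0.00899). Dkc1, the pseudouridine synthase of small nucleolar particles, rose from 186 to 312 (log2 fold change 0.74, edgeR adjusted p 0.00811). Hspe1, a mitochondrial co-chaperonin, fell from 381 to 234 (log2 fold change -0.71, edgeR adjusted p 0.00848). The balance turned with library totals as the scaling, where 1 rose and 4 fell, and it turned also without sham replicate 1, where 3 rose and 4 fell. Rises numbered 2 without EV replicate 1, and 1 without EV replicate 2 or EV replicate 3, while falls numbered 1 without sham replicate 3 or any single EV replicate.

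Of 31 genes that are E2F targets or belong to DNA replication or mitosis, 2 rose, 4 fell and 25 did not pass, beside 23.7% called over all genes. Their median log2 fold change was 0.02. Cdt1, which licenses replication origins, fell from 924 to 508 mean normalized counts (log2 fold change -0.86, edgeR adjusted p 5.9e-05). Pcna, the sliding clamp of DNA polymerases, fell from 3764 to 2323 (log2 fold change -0.69, edgeR adjusted p 0.00251). Rrm2, a subunit of ribonucleotide reductase, rose from 1240 to 1843 (log2 fold change 0.57, edgeR adjusted p 0.000394). Mki67, a marker of cycling cells named after its values were seen, was at 12108 in sham and 13807 with EVs (log2 fold change 0.19, edgeR adjusted p 0.0709). Leaving out any 1 of the 6 libraries left 1 rise, and falls numbered 5 without sham replicate 1, 1 without EV replicate 2, and 2 without each of the others.

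Of 23 genes, those activated by p53 other than Cdkn1a together with Trp53, 11 rose and 12 did not pass, with a median log2 fold change of 0.37. None of the rises reached a log2 fold change of 1. No gene of the list fell by edgeR, DESeq2 or limma, while 1 had an unadjusted p under 0.05 on the lower side and 14 on the higher side by edgeR. With library totals alone 9 rose and 1 fell, and without sham replicate 1 there were 10 rises and 1 fall. Sesn2, a stress-induced regulator of growth signalling, rose from 1811 to 3412 mean normalized counts (log2 fold change 0.91, edgeR adjusted p 1.24e-05). Ccng1, which encodes cyclin G1, rose from 3441 to 5889 (log2 fold change 0.78, edgeR adjusted p 9.77e-06). Zmat3, an RNA-binding protein, rose from 970 to 1656 (log2 fold change 0.77, edgeR adjusted p 2.24e-05). Trp53 itself, named after its values were seen, had a log2 fold change of 0.12 and an edgeR adjusted p of 0.209.

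**Figure D4:**
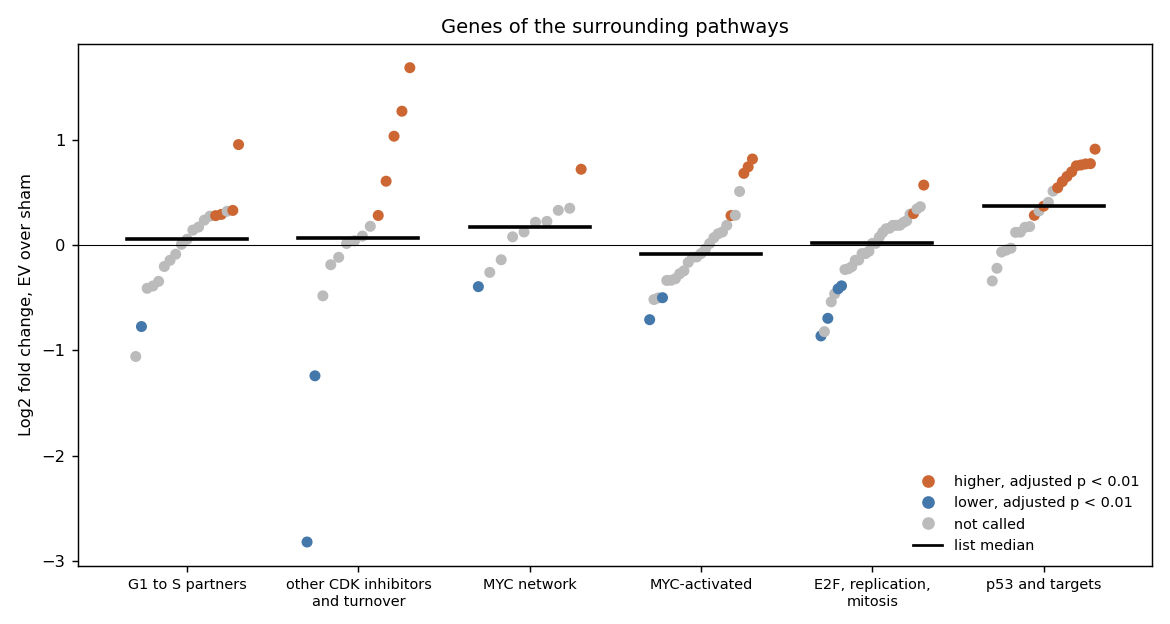
Log2 fold change, EV over sham (y axis), of each tested gene in the 6 pathway lists (x axis), sorted within a list, coloured by the call at an adjusted p under 0.01, with the list median as a line. The p53 list has 11 coloured points above 0 and a median of 0.37, while the medians of the other lists lie between -0.08 and 0.17.

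In the study's survival assays, EVs from activated T cells raised eosinophil survival over untreated cells and reduced apoptosis. The share of living cells in the cultures used for RNA is not given in the sources used here. Its part in the gene changes above, those of the pathway lists included, was not tested. In bulk samples, fewer cells of a type and less RNA per cell cannot be told apart, and markers of several cell types moved with the treatment. Of 10 eosinophil markers, 7 rose, and their summed normalized counts ranged from 927678 to 1169540 in sham and from 1325040 to 1482380 with EVs, so the labelled cell type was abundant in every sample. Of 11 macrophage markers, 8 fell and 1 rose. Their sum was 84435, 133128 and 130560 in sham replicates 1 to 3 and 45600, 52762 and 52391 in EV replicates 1 to 3. Those with the highest mean counts were Lyz2 (log2 fold change -3.28), Adgre1, which eosinophils also express (log2 fold change 0.62), and Csf1r (log2 fold change -1.31). Adgre1 alone was at 21206, 21095 and 21678 in sham replicates 1 to 3 and at 32085, 33532 and 32675 in EV replicates 1 to 3. It thus made up most of each EV sum, and the sum understates the fall of the markers that fell.

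Ccnd1 and Cdk4, the genes called lower, were both lower with EVs, as this macrophage sum was. Each was lowest in replicate 1 within sham and within EV, as the sum was. Cdk4 had the same order of samples as the sum within each group, while Ccnd1 had replicates 2 and 3 in the other order. Within sham, Cdkn1a and Myc, both called higher, also had the order of the sum, so it was not particular to the genes called lower. The order of EV replicates 2 and 3 in the sum rested on Adgre1. Without sham replicate 1 the log2 fold change was -2.10 for Ccnd1 and -0.72 for Cdk4. The part of macrophage RNA in the changes of Ccnd1 and Cdk4 was not tested. T cell markers were low, with Cd3e and Trbc1 not in the table. Of 5 tested, Cd28 and Il7r fell and the others did not pass the test. The sum ranged from 1407 to 2822 in sham and from 375 to 600 with EVs. It was made up mostly of Il7r (mean 1612 in sham and 362 with EVs) and Cd28 (559 and 42.4).

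**Figure D5:**
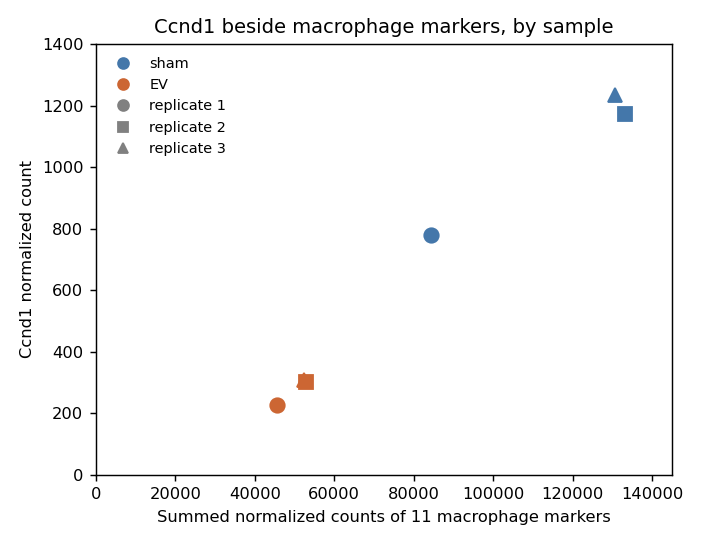
Ccnd1 normalized count (y axis) beside the summed normalized counts of the 11 macrophage markers (x axis) in the 6 cultures, coloured by treatment, with the shape giving the replicate number. The sum includes Adgre1, which eosinophils also express and which rose with EVs. The EV-treated cultures sit at the lower left, with Ccnd1 from 226 to 307 and sums from 45600 to 52762, and sham replicate 1 lies between them and the other sham cultures.

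Other marker sums also differed between groups. Mast cell and basophil markers, of which 4 of 6 rose, summed to between 2266 and 3332 in sham and between 6491 and 8196 with EVs. Progenitor markers, of which 2 rose and 1 fell among 5, summed to between 8484 and 9459 in sham and between 11084 and 12214 with EVs. Named after their values were seen, the rises were Gata2 (mean 2464 to 5187) and Meis1 (258 to 559). Cd34 fell (1771 to 1257), and Hoxa9 and Myb did not pass the test. Of 9 neutrophil markers 2 rose and 5 fell, and the sums overlapped, from 20146 to 24046 in sham and from 18894 to 22593 with EVs. Stromal or endothelial sums ranged from 19713 to 30203 in sham and from 11766 to 18224 with EVs, with 1 of 7 genes higher and 1 lower. Named after their values were seen, these were Pecam1 (mean 6699 to 9986) and Col1a2 (6988 to 939). Col1a1, Col3a1 and Sparc did not pass the test, but their EV-treated samples all lay below sham, with log2 fold changes of -2.74, -2.27 and -2.61. Pdgfra and Pdgfrb overlapped between groups. Erythroid or megakaryocyte sums overlapped, from 15960 to 18269 in sham and from 17180 to 20342 with EVs, with 2 of 5 genes higher and 2 lower. The 4 dendritic cell and 3 B cell markers tested gave no call by edgeR, with sums from 4939 to 5582 and from 152 to 162 in sham and from 5202 to 6374 and from 171 to 183 with EVs. The part of these cell types in the changes of the 10 genes was not tested.

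As a description over the 6 samples, which share the treatment contrast, the genes whose log2 levels followed Ccnd1 most closely among 10453 genes were Plod1, Cd28 and Ctsb, each with a Pearson r above 0.999. They are a collagen lysyl hydroxylase, a T cell costimulatory receptor and the lysosomal protease cathepsin B, and 1451 genes had an r above 0.9. The genes most like Myc were Aif1l (r = 0.997), Cacnb2 (r = 0.996) and Sdf2l1 (r = 0.996), and 1128 genes had an r above 0.9.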

How the data were processed

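Reads from poly(A)-selected RNA were checked with FastQC, trimmed with Cutadapt, quantified with Salmon and compared with DESeq2 by the authors, on mm10 per the labels. Versions and strand setting are not given in the sources used here. The deposited estimated counts per gene include values that are not whole. A deposited table of normalized counts holds a signal equal to the rounded estimated count plus 1 over a size factor, apart from 6 of 97524 values. A table of the authors' own fold changes and p-values was not used. Groups and replicate numbers came from the sample titles.

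The estimated counts, rounded to whole numbers, went into edgeR 4.0.16 under R 4.3.3 (TMM scaling, filterByExpr, quasi-likelihood test on treatment alone, Benjamini-Hochberg adjustment, call at 0.01), after a test on simulated data. SEs are the log2 fold change over the square root of F. DESeq2 1.42.0 and limma 3.58.1 (pseudocount 1) gave alternatives. Intervals are 95% intervals from edgeR. Genes named are all 10 members, the 3 called genes of each pathway list with the largest absolute log2 fold change, up to 3 abundant markers of a list that moved with a member, and the 3 genes most like Ccnd1 and Myc among those with a mean normalized count of at least 100; exceptions are said beside them. The genes, lists and ratios were chosen with earlier results of these data known.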

Additional observations from a re-analysis of the deposited data

How the results depend on the processing

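The 6 called genes kept their direction and their call under DESeq2's scaling, library totals alone, no low-count filter, DESeq2, limma, the replicate block and each left-out library. Leaving out 1 library at a time gave 4 rises throughout and 2 to 3 falls among the 10 genes. Log2 fold changes then ranged from -2.10 to -1.79 for Ccnd1, from 0.15 to 0.81 for Ccnd2, from 1.15 to 1.28 for Ccnd3, from -0.72 to -0.64 for Cdk4, from 1.25 to 1.29 for Cdk6, from 1.44 to 1.56 for Cdkn1a, from -0.00049 to 0.12 for Cdkn1b, from -0.69 to -0.46 for Cdkn2c, from 0.18 to 0.32 for Cdkn2d and from 0.78 to 1.00 for Myc. The sign of Cdkn1b turned with library totals alone (-0.10) and without sham replicate 2 (-0.00049). Cdkn2c passed the threshold with library totals alone (-0.71), under DESeq2 (-0.56), with the replicate block (-0.55) and without sham replicate 3 (-0.69).

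Library totals alone moved the median of all genes from -0.01 to -0.16 and gave 1036 genes higher and 2342 lower, against 1632 and 1572. On that scale, rises and falls numbered 1 and 2 among G1 to S partners, 1 and 2 in the MYC network, 1 and 4 among MYC-activated genes, 1 and 4 among replication genes and 9 and 1 among p53 targets. The cause was not tested. When the log2 fold change also had to reach 1 in size, 419 genes were higher and 857 lower, 1 of the 10 genes fell, 3 other inhibitor and turnover genes rose, and the remaining lists had 0 rises and, where they had any fall, 0 falls. At an adjusted p under 0.05, 2478 genes were lower, falls numbered 2 among G1 to S partners, 2 in the MYC network, 4 among MYC-activated genes and 1 among p53 targets, and the MYC network had 3 rises. DESeq2 gave 2 rises and 2 falls in the MYC network and 4 falls among MYC-activated genes. Without the filter 1 MYC-activated gene fell.

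Leaving out 1 library gave 1071 to 1833 genes higher and 1018 to 1698 lower, with the fewest in each direction without EV replicate 3, and 1044 lower without EV replicate 2. It gave 1 to 4 rises among G1 to S partners, 1 to 2 in the MYC network, 1 to 4 rises and 1 to 4 falls among MYC-activated genes, 1 rise and 1 to 5 falls among replication genes, and 0 to 1 falls among p53 targets.

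The shared replicate numbers were not taken to pair the samples, as no source used here states a pairing of these RNA samples. Deviations of same-numbered samples correlated at 0.107, 0.0831 and 0.0417, which cannot show that the samples are unpaired. Each sample correlated best with its own number, a hint of pairing from the data and not the design. With the replicate number as a block, 1794 genes were higher and 1781 lower, 4 of the 10 genes rose and 3 fell, and 4 MYC-activated genes fell.

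By coding length the D cyclin shares moved by -10.3 points for Ccnd1, -1.35 for Ccnd2 and 11.6 for Ccnd3, and with no length by -10.4, -1.33 and 11.7. Leaving out 1 library gave -7.68 to -5.70, -0.976 to -0.302 and 6.08 to 7.99. The 3 cultures per group limit the precision.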
